A study of Nannospalax ehrenbergi and Mus musculus with 25 samples.

Results

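The Nrf2 antioxidant pathway was examined through 10 genes in neck muscle and tumors of the blind mole rat Spalax and of mice. The genes were taken by name and cover the sensor pair (Nfe2l2 and Keap1), glutathione synthesis (Gclc and Gclm), sulfiredoxin and thioredoxin reductase (Srxn1 and Txnrd1), the superoxide dismutases (Sod1, Sod2 and Sod3) and catalase (Cat). All 10 were found in both count tables, which list 27988 genes for Spalax and 47593 for mouse. The data are 25 RNA-seq libraries, 16 of wild-caught Spalax and 9 of C57BL/6 mice. Spalax controls (4 libraries, all female) received nothing, while Spalax tolerant animals (4 libraries of the injected side, 3 male and 1 female) were healthy 18 or 30 months after 3-methylcholanthrene (3MCA), a carcinogen that induces sarcomas. The other Spalax groups came from 3MCA-treated animals that grew a tumor: 2 animals with a granuloma, a benign growth (sampled at 14 and 16 months), and 2 with a fibrosarcoma, a malignant one (18 and 30 months), each giving the injected side (IS, the tumor) and the uninjected side (UIS). Both granuloma animals were female, and the fibrosarcoma animals were 1 female (18 months) and 1 male (30 months). Mice, all male, gave 3 libraries each of untreated control, fibrosarcoma UIS and fibrosarcoma IS, taken 11, 12 or 14 weeks after 3MCA. The single subcutaneous dose was 1 mg in 500 µl for Spalax and 200 µg in 200 µl for mice. The series gives Spalax as about 2 years old or at least 10 years old, and mice as 3 to 4 months. The Spalax ages are estimates, since the paper states that those of field-caught animals cannot be determined exactly. Each Spalax tumor type thus rests on 2 animals. Values of the 2 species were normalised separately, so levels are compared only within a species.

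Nrf2, the protein of Nfe2l2, is a transcription factor that switches on genes against oxidative and electrophilic stress. In resting cells Keap1 holds Nrf2 and directs it to degradation, and oxidants or electrophiles that modify Keap1 release it. Since this control acts on the protein, the RNA of Nfe2l2 is not a measure of Nrf2 activity. Skeletal muscle is rich in mitochondria, which produce superoxide, and superoxide dismutases turn this into hydrogen peroxide that catalase, peroxiredoxins and glutathione peroxidases remove.

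Each value is a normalised read count, namely reads divided by a size factor of the library, and differences are on the scale of log2(value + 1). Depth ranged from 17025447 to 23386729 reads in Spalax and from 22143060 to 31179183 in mouse. The members rested on 45 to 102030 reads in a library. Skeletal muscle fibre markers (7 genes in the Spalax table, 10 in that of mouse) summed to 808853 to 3019312 in the 12 Spalax libraries labelled control, tolerant or UIS and to 1264398 to 4850736 in the 6 such mouse libraries, so these libraries are rich in muscle RNA. A few libraries stood apart, each with the highest value of its species' muscle libraries in a large share of all genes: Spalax granuloma UIS 976 (23.7% of genes), Spalax tolerant 2251 (22.3%) and mouse UIS 512 (33.0%). Of the 10 members, 7 were highest in granuloma UIS 976 and 6 in mouse UIS 512. In tolerant 2251 the summed macrophage markers reached 24631 and the fibroblast markers 224137.

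The levels of the members relative to each other were read in mouse, where exon lengths are known. As RPKM, reads per kilobase of exon scaled to library depth, the mouse control libraries gave 107.0 to 228.0 for Cat. Sod1 gave 56.8 to 65.8 and Sod2 44.4 to 51.1, and these 3 ranges did not overlap. The annotated exon bases used were 2613 for Cat, 3970 for Sod1 and 10008 for Sod2. Such lengths can exceed those of the transcripts present, so the order of members depends on the lengths used. Nfe2l2 followed with 22.2 to 24.0, a range that lay within that of Sod3 (9.17 to 26.4). Srxn1 gave 17.1 to 18.1, Txnrd1 14.4 to 16.3 and Keap1 13.2 to 14.5, and the last 2 ranges overlapped slightly. These 3 ranges also lay within that of Sod3. Gclc (4.06 to 7.73) and Gclm (4.43 to 6.11) were lowest and overlapped. In Keap1, 10.9% of the exon bases lie under an antisense gene, Gm16754, and in Gclm 4.71% under antisense and 3.88% under same-strand genes. Whether counting used the strand is not stated, so reads there cannot be told apart. The other 8 members share no exon base with another gene in GENCODE vM21.

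**Figure D1:**
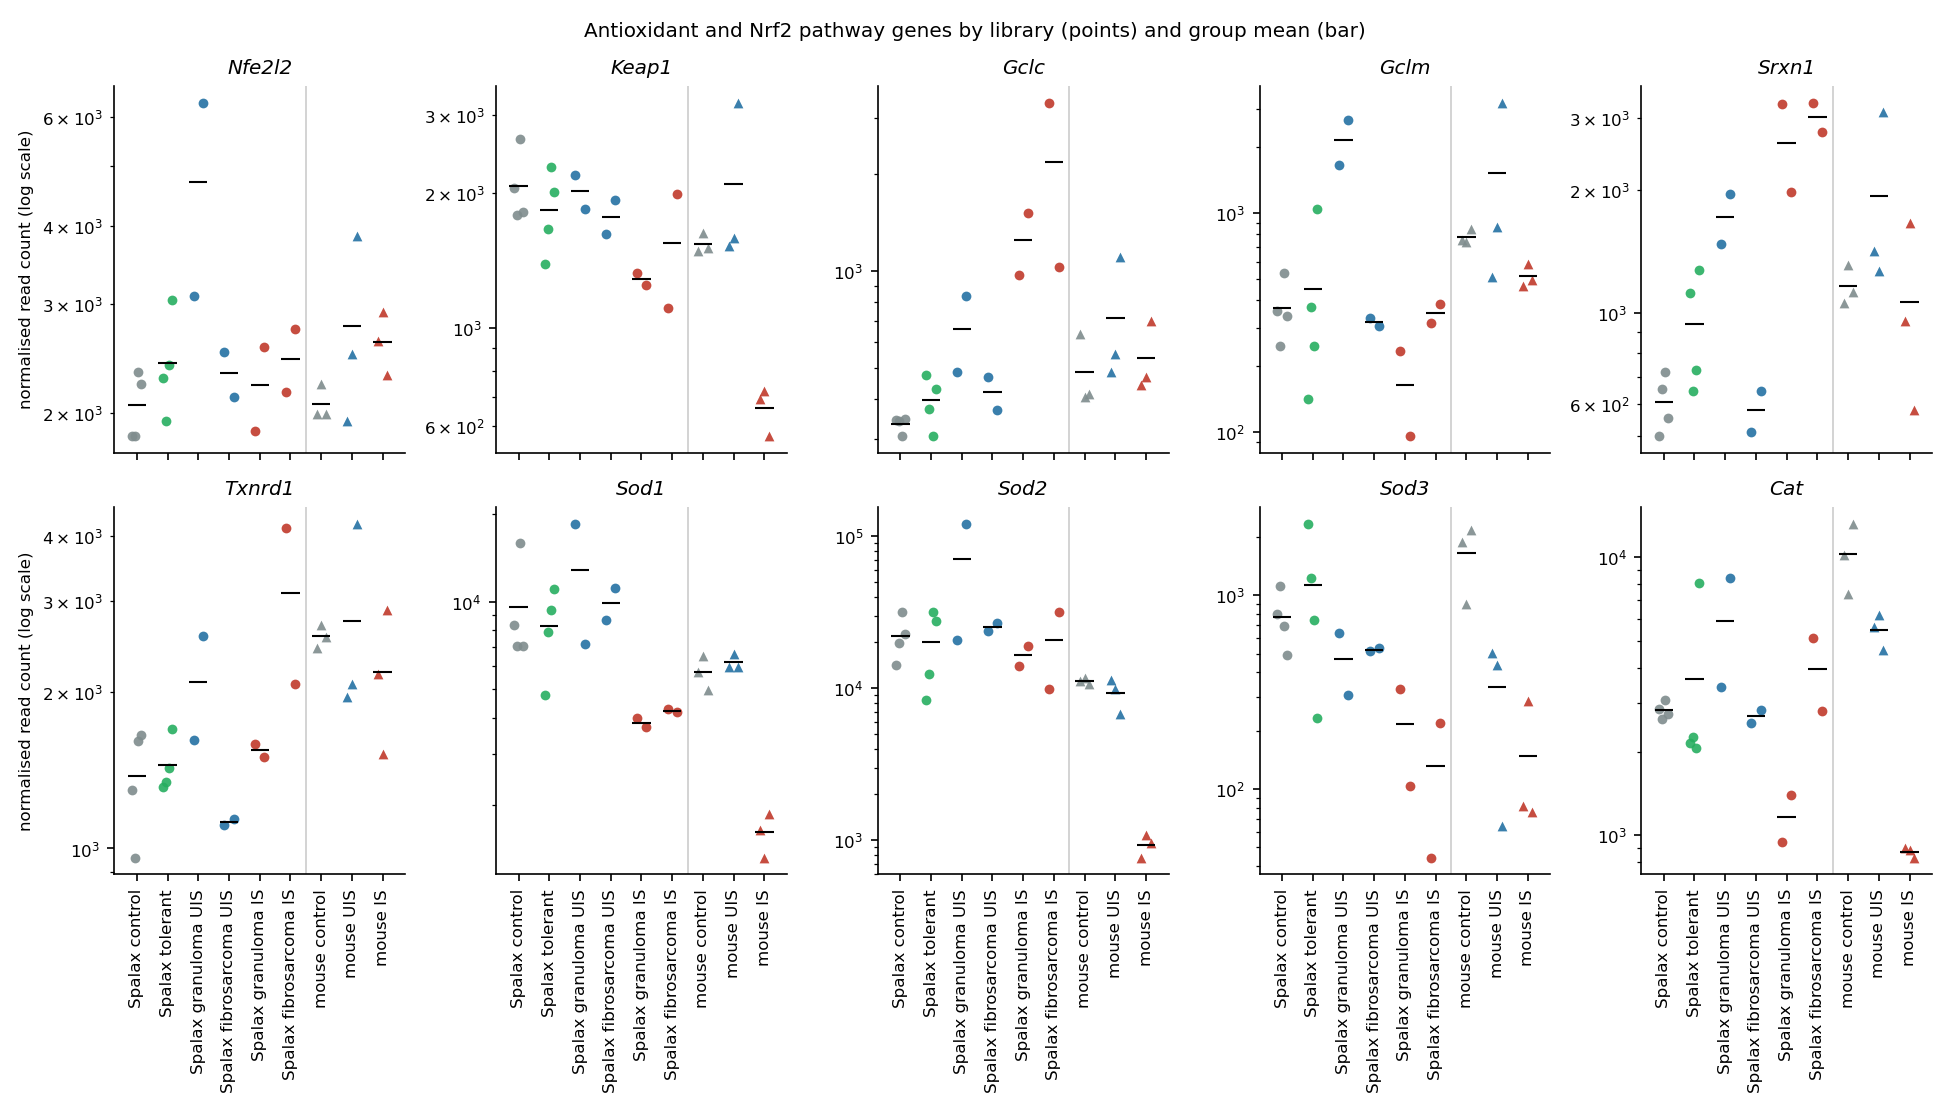
Normalised read count on a log scale (y axis) of each of the 10 genes by group (x axis), with 1 point per library (circles Spalax, triangles mouse) and a bar for the group mean. Red points are tumors, and Sod1 is lower in all 7 of them than in every muscle library of the same species.

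The first question was how the pathway differs between a tumor and uninjected tissue of the animal that carried it. In Spalax granulomas 2 members were lower, Gclm and Cat. Spalax fibrosarcomas had Srxn1 higher and Sod1 lower, and mouse fibrosarcomas had Keap1, Sod1, Sod2 and Cat lower. Of the 10 members, limma at an adjusted p of at most 0.05 thus called 0 higher and 2 lower in granuloma, where 11.7% of all genes tested were called higher and 12.6% lower. In fibrosarcoma it called 1 higher and 1 lower (all genes, 17.4% higher and 19.0% lower). With both tumor types pooled, 2 were higher, Gclc and Srxn1, and 2 lower, Sod1 and Sod3 (all genes, 26.1% and 26.5%). In mouse 0 were higher and 4 lower (all genes, 22.8% and 22.3%). The median log2 fold change of the 10 members was -1.13 in granuloma, 0.10 in fibrosarcoma and -1.06 in mouse, beside -0.01, 0.03 and 0.11 over all genes.

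Some of these directions depend on the scaling. When libraries were scaled by their total reads instead, the median of all genes moved up by 0.73 in granuloma, 0.80 in fibrosarcoma, 0.77 in both types pooled and 1.05 in mouse. The share of higher genes among those called moved from 48.0% to 75.0% in granuloma, from 47.8% to 75.6% in fibrosarcoma, from 49.7% to 75.4% in both types and from 50.5% to 81.9% in mouse. Members are therefore given relative to the median of all genes, and a change of sign under total reads is stated beside the member.

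**Figure D2:**
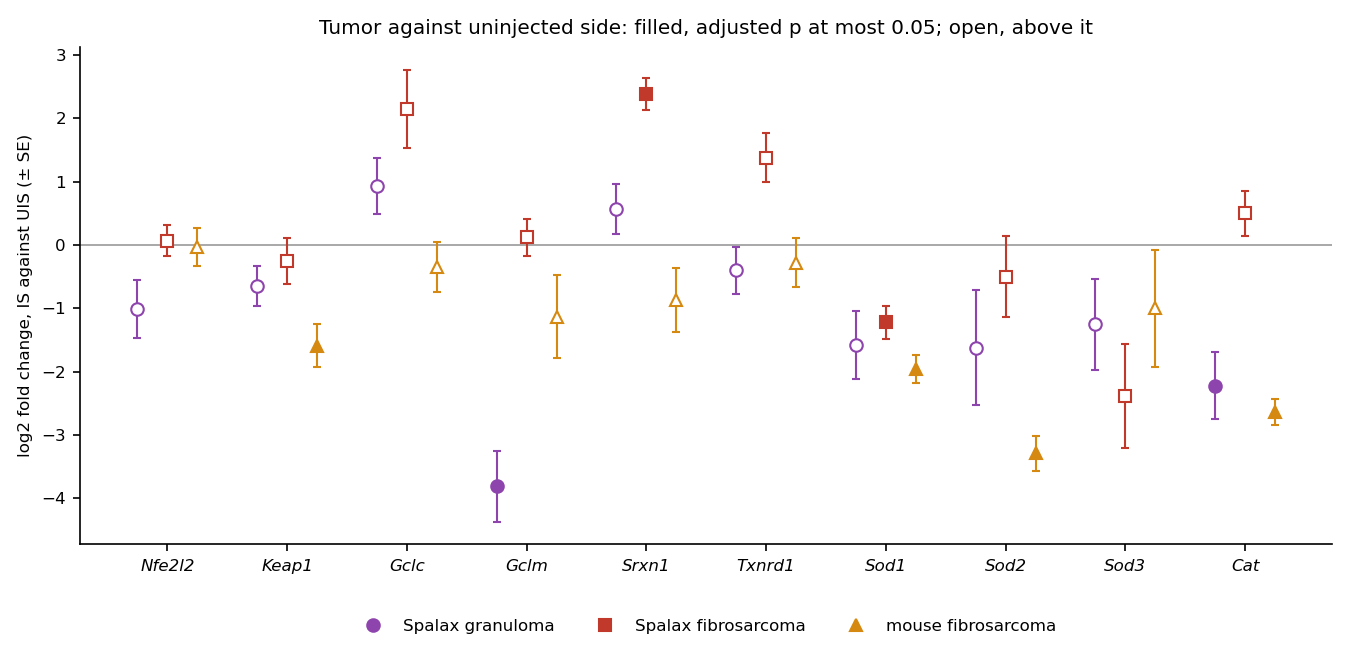
Log2 fold change of IS against UIS with its standard error (y axis) for each member (x axis) in Spalax granuloma (2 animals), Spalax fibrosarcoma (2 animals) and mouse fibrosarcoma (3 animals). Filled symbols have an adjusted p of at most 0.05 by limma; Sod1 lies below 0 in all 3 comparisons, while Srxn1 is at 2.39 in Spalax fibrosarcoma and at -0.87 in mouse.

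Nfe2l2, the gene of Nrf2 (mouse chr2:75675513-75704641, minus strand), was not called in any tumor comparison. The granuloma UIS libraries held 3086 (animal 600) and 6326 (animal 976) normalised counts, and the granuloma IS libraries 1874 and 2559. Fibrosarcoma UIS held 2512 (animal 2240) and 2127 (animal 2230), and fibrosarcoma IS 2167 and 2731. The 4 tumors thus lay within the range of the other Spalax muscle libraries, and granuloma UIS 976 was far above them. Both granulomas lay below both granuloma UIS libraries. In mouse, UIS held 1943 (animal 1019), 2488 (animal 1023) and 3857 (animal 512), and IS 2615, 2907 and 2300, with overlap. Log2 fold changes were -1.01 (SE 0.46, adjusted p 0.164 in limma) in granuloma, 0.07 (SE 0.25, adjusted p 0.837 in limma) in fibrosarcoma and -0.03 (SE 0.30, adjusted p 0.942 in limma) in mouse. Scaled by total reads, the mouse value turned to 1.04 with an adjusted p in limma of 0.0108. A single model over all Spalax libraries called the granuloma value (adjusted p 0.0261 in limma).

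Keap1, the cytoplasmic anchor of Nrf2 (mouse chr9:21229730-21239361, minus strand), fell in mouse tumors. Mouse UIS held 1527 (1019), 1585 (1023) and 3195 (512) normalised counts and IS 690.5, 719.5 and 570. All IS values lay under every UIS and control value (1485, 1631 and 1506 in M1, M2 and M5). The log2 fold change was -1.59 (SE 0.34, adjusted p 0.0111 in limma), a 3.01-fold lower level, and -1.24 with an adjusted p in limma of 0.00688 without UIS 512. Scaled by total reads it was -0.52, no longer past the threshold (adjusted p 0.124 in limma). In Spalax it was not called. Granuloma UIS held 2197 (600) and 1842 (976) and IS 1323 and 1244, and fibrosarcoma UIS held 1618 (2240) and 1929 (2230) and IS 1104 and 1989. Log2 fold changes were -0.65 (SE 0.32, adjusted p 0.183 in limma) and -0.25 (SE 0.36, adjusted p 0.613 in limma), and under total reads they turned to 0.09 and 0.55. The interaction of species and side, Spalax fibrosarcoma minus mouse, was 1.34 (SE 0.53, adjusted p 0.191 in limma).

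Gclc (mouse chr9:77754535-77794485, plus strand) encodes the catalytic subunit of glutamate-cysteine ligase, the rate-limiting enzyme of glutathione synthesis, and Gclm (mouse chr3:122245557-122270732, plus strand) its modifier subunit, which raises the enzyme's efficiency. Gclc rose over both Spalax tumor types, and Gclm fell in granuloma. Gclc stood at 484.8 (600) and 833.8 (976) in granuloma UIS and at 969 and 1520 in IS. Fibrosarcoma UIS held 468 (2240) and 369.6 (2230) and IS 3344 and 1030. Gclc was higher in the tumor of every one of the 4 animals, and all 4 IS values exceeded all 4 UIS values. It rose by 1.54 over both tumor types (SE 0.42, adjusted p 0.0118 in limma), a 2.91-fold higher level. Within a type the log2 fold change was 0.93 (SE 0.44, adjusted p 0.175 in limma) in granuloma, or 1.67 under total reads (adjusted p 0.047 in limma). The fibrosarcoma value was 2.15 (SE 0.62, adjusted p 0.0542 in limma). The fit with the animal as a block gave an adjusted p in limma of 0.0215 there. Mouse Gclc stood at 483.7 (1019), 551.8 (1023) and 1107 (512) in UIS and at 440.4, 467.4 and 699 in IS, with overlap (log2 fold change -0.35, SE 0.39, adjusted p 0.495 in limma; 0.72 under total reads).

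Gclm fell in granuloma by 3.81 on the log2 scale, the largest difference of any member between IS and UIS in the 4 comparisons. Its levels were 1661 (600) and 2670 (976) in granuloma UIS and 233.7 and 95.46 in IS (SE 0.56, adjusted p 0.013 in limma), a 14.0-fold lower level. The granuloma UIS values were themselves high, since Spalax controls held 248.1 to 531.4 and fibrosarcoma UIS 333.4 (2240) and 305.7 (2230). Granuloma IS 600 lay just under that control range and IS 976 well below it. The call was lost without IS 600 (adjusted p 0.0604 in limma), IS 976 (0.0901) or UIS 976 (0.0724), each of which leaves a lone library assumed to vary like the others. Fibrosarcoma IS held 314.7 and 385, overlapping with UIS (log2 fold change 0.12, SE 0.29, adjusted p 0.76 in limma). Over both types the value was -1.84 (SE 0.75, adjusted p 0.066 in limma), which DESeq2 (adjusted p 0.00381) and edgeR (adjusted p 0.0296) called. In mouse, UIS held 512.7 (1019), 865.3 (1023) and 3199 (512) and IS 463.1, 587.2 and 496.9 (log2 fold change -1.13, SE 0.65, adjusted p 0.194 in limma).

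The ratio of Gclc to Gclm reads within a library does not depend on the scaling of that library. It was chosen after the values were seen and is given as a description. In Spalax controls it lay between 0.577 and 1.37, in granuloma UIS at 0.292 and 0.312, and in fibrosarcoma UIS at 1.4 and 1.21. The Spalax tumors held 4.15 (600), 15.9 (976), 10.6 (2240) and 2.67 (2230). One muscle library, tolerant 2251 with 3.35, lay within the range of the tumors, while the other 3 tolerant libraries held 0.411 to 1.24. Mouse ratios ranged from 0.487 to 0.846 in control, 0.346 to 0.943 in UIS and 0.796 to 1.41 in IS. Nfe2l2 to Keap1 was 3.79 to 4.04 in mouse tumors against 1.21 to 1.57 in mouse UIS. It was 1.37 to 2.06 in the 4 Spalax tumors against 1.10 to 3.43 in their UIS.

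**Figure D3:**
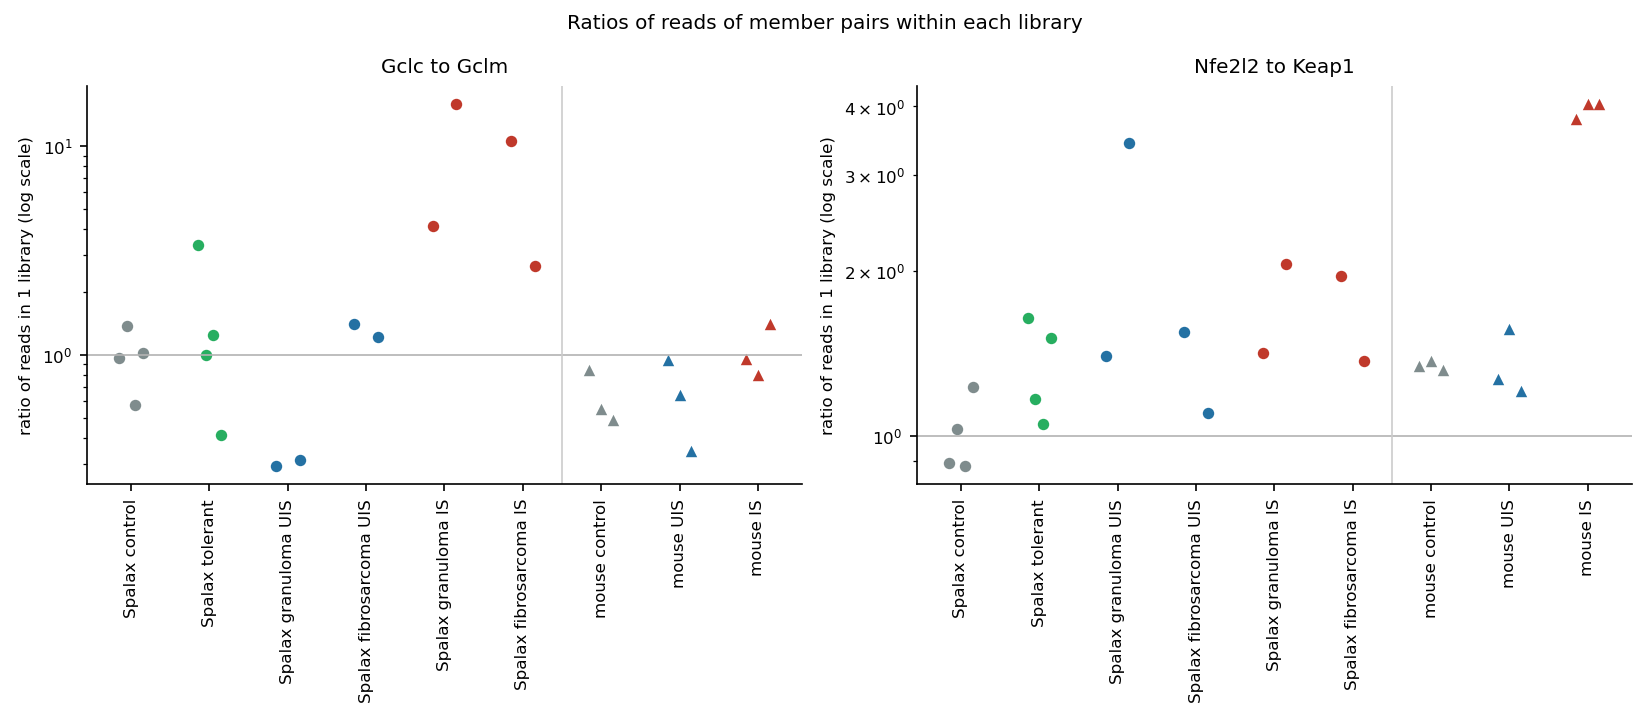
Ratio of the reads of 2 members within each library on a log scale (y axis) by group (x axis), for Gclc to Gclm (left) and Nfe2l2 to Keap1 (right), with 1 point per library. The 4 Spalax tumors hold Gclc to Gclm ratios of 2.67 to 15.9, and the 3 mouse tumors hold Nfe2l2 to Keap1 ratios of 3.79 to 4.04.

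Srxn1 (mouse chr2:152105516-152111376, plus strand) encodes sulfiredoxin, which repairs over-oxidised peroxiredoxins and is a classical Nrf2 target. In fibrosarcoma it stood at 512.8 (2240) and 645.4 (2230) in UIS and at 3270 and 2778 in IS. It rose by 2.39 (SE 0.25, adjusted p 0.00595 in limma), a 5.23-fold higher level, with both IS values above every Spalax muscle library. Without UIS 2240 or UIS 2230 the limma adjusted p was 0.111. Granuloma UIS held 1476 (600) and 1954 (976), above the control range of 500.2 to 718.5, and IS 3237 and 1975. The difference there was 0.57 (SE 0.39, adjusted p 0.322 in limma), or 1.31 under total reads (adjusted p 0.0475 in limma). In normalised counts animal 976 hardly differed between its sides. Over both tumor types Srxn1 rose by 1.48 (SE 0.42, adjusted p 0.0156 in limma). In mouse, UIS held 1422 (1019), 1269 (1023) and 3107 (512) and IS 955.2, 1666 and 581.1. Animal 1023 was higher in the tumor and the other 2 lower (log2 fold change -0.87, SE 0.50, adjusted p 0.198 in limma; 0.20 under total reads).

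Txnrd1, cytosolic thioredoxin reductase (mouse chr10:82833951-82897712, plus strand), stood at 1108 (2240) and 1137 (2230) in fibrosarcoma UIS and at 4133 and 2077 in IS. Both tumors exceeded both UIS libraries, with a log2 fold change of 1.38 (SE 0.39, adjusted p 0.0524 in limma, or 0.0452 with the animal as a block). Granuloma UIS held 1617 (600) and 2560 (976) and IS 1586 and 1502, a difference of -0.40 (SE 0.37, adjusted p 0.454 in limma) that turned to 0.34 under total reads. Mouse UIS held 1954 (1019), 2071 (1023) and 4212 (512) and IS 2167, 1521 and 2874, with overlap (log2 fold change -0.28, SE 0.39, adjusted p 0.583 in limma; 0.79 under total reads).

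Sod1, the cytosolic copper-zinc superoxide dismutase (mouse chr16:90220754-90226329, plus strand), was lower in the tumor than in the uninjected side of all 7 animals. Granuloma UIS held 18521 (600) and 7148 (976) and IS 3983 and 3697. Fibrosarcoma UIS held 8689 (2240) and 11136 (2230) and IS 4264 and 4187. The 4 Spalax tumors lay between 3697 and 4264, a narrow range under every muscle library. Sod1 fell by 1.4 over both types (SE 0.29, adjusted p 0.00331 in limma) and by 1.22 in fibrosarcoma (SE 0.26, adjusted p 0.0265 in limma, or 0.0547 with the animal as a block, 0.19 without UIS 2240 and 0.279 without UIS 2230), and the granuloma value was -1.58 (SE 0.54, adjusted p 0.0879 in limma). In mouse, UIS held 5964 (1019), 6640 (1023) and 5979 (512) and IS 1646, 1318 and 1870, a fall by 1.96 (SE 0.22, adjusted p 0.00214 in limma). Under total reads the Spalax falls shrank to -0.63 over both types (adjusted p 0.0893 in limma) and -0.41 in fibrosarcoma (0.199), while the mouse fall of -0.89 stayed called (0.0221). DESeq2 called the granuloma value (adjusted p 0.0256). A single model over all Spalax libraries also called it (adjusted p 0.0225 in limma) but lost the fibrosarcoma call (0.0675).

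Sod2, the manganese enzyme of the mitochondrial matrix (mouse chr17:13006846-13040063, plus strand), fell in mouse tumors by 3.29 (SE 0.28, adjusted p 0.00128 in limma), a 9.79-fold lower level. Mouse UIS held 11306 (1019), 9829 (1023) and 6733 (512), and IS 768.1, 1084 and 956.4. The Spalax tumors gave no call in limma, while DESeq2 called Sod2 lower in granuloma (adjusted p 0.0432). Granuloma UIS held 20876 (600) and 120165 (976) and IS 14061 and 18834, while fibrosarcoma UIS held 23696 (2240) and 26709 (2230) and IS 9875 and 31835. Of the 4 tumors, 3 lay within the range of Spalax control and tolerant libraries (8362 to 31659) and fibrosarcoma IS 2230 just above it, while the value of granuloma UIS 976 was far above all others. The log2 fold changes were -1.62 (SE 0.91, adjusted p 0.235 in limma) in granuloma and -0.50 (SE 0.64, adjusted p 0.57 in limma; 0.30 under total reads) in fibrosarcoma.

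Sod3, the extracellular copper-zinc enzyme (mouse chr5:52363791-52371418, plus strand), fell by 1.82 over both Spalax tumor types (SE 0.58, adjusted p 0.0245 in limma). Granuloma UIS held 636.7 (600) and 305 (976) and IS 328.8 and 103.3. Fibrosarcoma UIS held 515.2 (2240) and 533.1 (2230) and IS 44.26 and 219.5. It was lower in the tumor of each animal, with overlap only through animal 976's UIS and animal 600's IS. Within a type the values were -1.25 (SE 0.72, adjusted p 0.249 in limma) in granuloma and -2.39 (SE 0.82, adjusted p 0.0822 in limma, or 0.0473 with the animal as a block) in fibrosarcoma. The pooled call was lost without UIS 600 (adjusted p 0.0643 in limma), IS 976 (0.0617), UIS 2240 (0.0556) or UIS 2230 (0.0577), and under total reads (0.136). Mouse UIS held 505.5 (1019), 435.2 (1023) and 64.78 (512) and IS 81.67, 285.9 and 76.32, with a difference of -1.0 (SE 0.92, adjusted p 0.41 in limma; 0.06 under total reads).

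Cat, catalase of the peroxisome (mouse chr2:103453849-103485160, minus strand), fell in Spalax granuloma and in mouse fibrosarcoma. Granuloma UIS held 3409 (600) and 8406 (976) and IS 945.1 and 1391, a fall by 2.22 (SE 0.53, adjusted p 0.0376 in limma). Both granulomas lay below every Spalax muscle library. Without IS 600, IS 976 or UIS 976 the limma adjusted p was 0.212, 0.164 or 0.0861, and under total reads it was 0.0906. Mouse UIS held 5593 (1019), 6225 (1023) and 4646 (512) and IS 904, 888.5 and 831.1, a fall by 2.64 (SE 0.21, adjusted p 0.00108 in limma). Spalax fibrosarcoma gave no call, with 2539 (2240) and 2829 (2230) in UIS and 5116 and 2792 in IS (log2 fold change 0.50, SE 0.36, adjusted p 0.334 in limma). Animal 2240 had a higher level in its tumor and animal 2230 nearly the same level on both sides. Under total reads that value was 1.30 with an adjusted p in limma of 0.0359.

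Markers of the tissue also differed between the sides, and these values stand beside all the differences above. Skeletal muscle fibre markers summed to 849866 to 2373403 in the 4 Spalax UIS libraries and to 176.4 to 2513 in the 4 tumors, and in mouse to 1998640 to 4850736 and 98.72 to 47869. Of the 7 muscle mitochondrial markers in the Spalax table, 7 were lower in each tumor type by limma, and in mouse 10 of 10. Proliferation markers summed to 490.5 to 1482 in Spalax UIS and 6442 to 15257 in IS, and to 80.62 to 1663 and 13400 to 17981 in mouse. Fibroblast markers reached 981985 to 2107280 in granuloma, 124904 to 436499 in Spalax fibrosarcoma and 165893 to 197493 in mouse tumors. Macrophage markers summed to 12542 to 57952 in Spalax tumors and 10777 to 60480 in mouse tumors. Called higher by limma were 4 of 8 macrophage markers in granuloma, 3 of 8 in Spalax fibrosarcoma and 7 of 10 in mouse. White fat markers summed to 6075 to 20217 in Spalax UIS and 370.4 to 3781 in IS, and to 27117 to 188043 and 648.5 to 1326 in mouse. Brown fat markers summed to 2021 to 20496 and 541.5 to 610.4 in Spalax, and to 2901 to 31827 and 427.1 to 1916 in mouse. Neutrophil markers summed to 1092 to 3210 in granuloma UIS and 5970 to 7683 in IS, to 229.1 to 339.8 and 1514 to 6249 in Spalax fibrosarcoma, and to 327.7 to 16896 and 451.1 to 1949 in mouse. Endothelial markers summed to 9740 to 11880 and 3698 to 5699 in Spalax, and to 9821 to 16653 and 2012 to 11660 in mouse. None of the fibre, macrophage, fibroblast or proliferation markers was at 0 in all libraries of a tumor group. In such bulk tissue, fewer cells of a type and less RNA per cell cannot be told apart, and the part of these markers in the members' differences was not tested.

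Tumor types and species were then compared directly. The interaction of tumor type and side in Spalax called 0 of the 10 members (all genes, 0%), with 4 of 10 at an unadjusted p under 0.05 (all genes, 4.92%). These were Gclm with a difference of 3.93 (SE 0.68), Cat with 2.72 (SE 0.70), Srxn1 with 1.81 (SE 0.48) and Txnrd1 with 1.78 (SE 0.55), all more positive in fibrosarcoma, with adjusted p in limma of 0.642 for Gclm and 0.946 for the others. DESeq2 called 1 of them, Gclm (adjusted p 0.000445), and edgeR 0. The interaction also takes in the uninjected sides, where mean levels of all 4 were higher in granuloma than in fibrosarcoma animals. For Gclm these were 2165 and 319.5 (IS 164.6 and 349.9), and for Srxn1 1715 and 579.1 (IS 2606 and 3024). Cat held 5907 and 2684 (IS 1168 and 3954) and Txnrd1 2089 and 1123 (IS 1544 and 3105). Between fibrosarcoma IS and granuloma IS themselves limma called 0 of 10 (all genes, 0%), and 1 of 10 had an unadjusted p under 0.05 (all genes, 4.06%). This was Cat, with 5116 and 2792 against 945.1 and 1391, a difference of 1.72 (SE 0.43, adjusted p 1.0 in limma). DESeq2 and edgeR called 0 members there. Granulomas were sampled earlier after 3MCA than fibrosarcomas, so time and tumor type cannot be told apart. Sex was not balanced either, since the only male was a fibrosarcoma animal.

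The interaction of species and side, Spalax fibrosarcoma minus mouse, called 2 of 10 members, both more positive in Spalax (all genes, 2.01%), and 0 more negative (all genes, 1.94%). Cat differed by 3.13 (SE 0.40, adjusted p 0.00997 in limma) and Srxn1 by 3.25 (SE 0.69, adjusted p 0.0407 in limma). With the animal as a block neither passed (adjusted p 0.0519 in limma and 0.117). The call of Cat was lost without fibrosarcoma UIS 2240 (adjusted p 0.0738 in limma) or UIS 2230 (0.0847). That of Srxn1 was lost without any 1 of the 4 Spalax libraries (0.0712 to 0.175) and without mouse IS 1019 (0.0658), UIS 1023 (0.0753) or IS 512 (0.0566). Sod2 (2.79, SE 0.66, adjusted p 0.0533 in limma) and Gclc (2.50, SE 0.75, adjusted p 0.0997 in limma) did not pass. Spalax tumors were taken months and mouse tumors weeks after 3MCA, at different doses, and these cannot be told apart from species.

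The other genes of the pathway were described by 7 lists of 82 genes, of which 70 are in the Spalax table and 80 in that of mouse. In granuloma 11 of 66 tested were higher and 16 lower, in Spalax fibrosarcoma 15 of 68 higher and 14 lower, and in mouse 11 of 76 higher and 29 lower, by limma at an adjusted p of at most 0.05. The percentages over all genes given above for these comparisons apply here as well. Across the lists, 10 genes with the same symbol in both tables were called in all 3 comparisons in one direction, 3 higher and 7 lower. Thioredoxin, Txn in the Spalax table and Txn1 in that of mouse, is not among them. It was also called higher in granuloma, Spalax fibrosarcoma and mouse (1.41, 2.38 and 0.87). Scaled by total reads, 0 of the 27 called in granuloma, 0 of the 29 in fibrosarcoma and 2 of the 40 in mouse (Gss and Rbx1) changed sign.

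**Figure D4:**
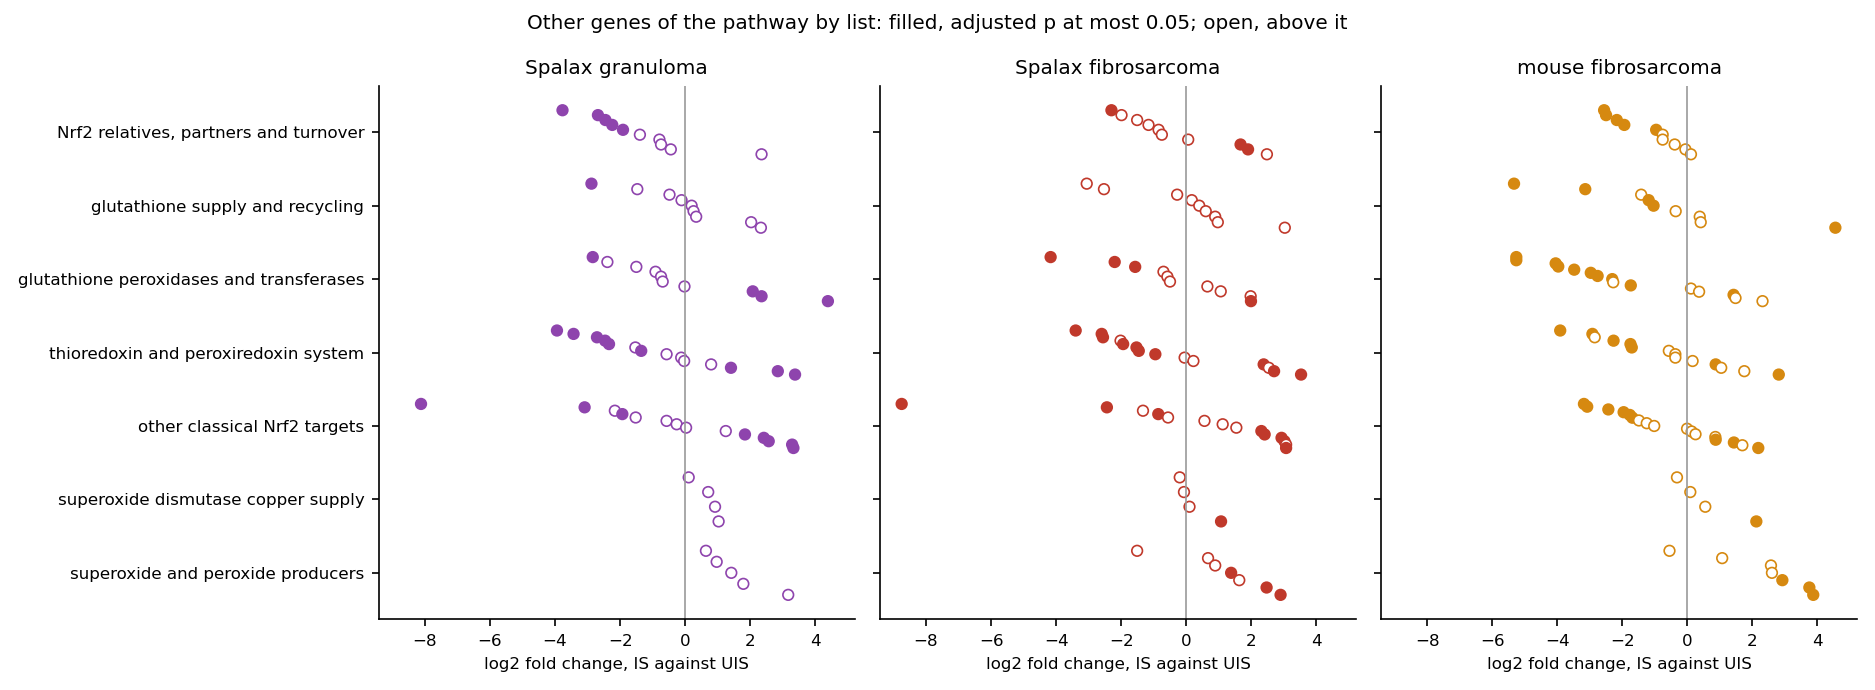
Log2 fold change of IS against UIS (x axis) for every tested gene of the 7 pathway lists (y axis) in Spalax granuloma, Spalax fibrosarcoma and mouse fibrosarcoma, with filled points for an adjusted p of at most 0.05. Glutathione peroxidases and transferases are mostly lower in mouse (9 of 15 called), while the Spalax table holds only 10 of these 15. No producer of superoxide or peroxide is called lower in any of the 3.

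Among relatives and partners of Nrf2, 0 of 10 were higher and 5 lower in granuloma, 2 higher and 1 lower in Spalax fibrosarcoma, and 0 and 5 in mouse. Nfe2l1, the Nrf2 relative that drives proteasome genes, fell in granuloma, Spalax fibrosarcoma and mouse, with log2 fold changes of -2.45, -2.30 and -2.56. Cul3, the ubiquitin ligase scaffold that works with Keap1, was lower in granuloma (-1.91) and mouse (-1.94). Of other classical Nrf2 targets, 5 of 14 were higher and 3 lower in granuloma, 5 and 3 in Spalax fibrosarcoma, and 3 and 6 of 17 in mouse. Hmox1, heme oxygenase 1, rose by 2.57, 3.02 and 2.18, and Pgd, of the pentose phosphate pathway, by 1.84, 2.31 and 1.43. Aox1, an aldehyde oxidase, fell in the same order (-8.12, -8.75 and -1.96), as did Osgin1 (-3.09, -2.44 and -1.69). Nqo1, a quinone reductase often used as a readout of Nrf2 and named here after its values were seen, fell in mouse by 3.18 (adjusted p 0.00284 in limma). It held 492.2, 666.2 and 1231 in mouse UIS (1019, 1023 and 512) against 65.64, 85.41 and 93.69 in IS. In Spalax fibrosarcoma it stood at 201.2 (2240) and 228.9 (2230) in UIS and at 435.8 and 901.9 in IS. That difference of 1.54 did not pass (adjusted p 0.054 in limma), nor did 1.25 in granuloma (adjusted p 0.253 in limma). Over both Spalax tumor types Nqo1 was called higher by 1.39 (adjusted p 0.0266 in limma), with overlap between the sides. The interaction of species and side, Spalax fibrosarcoma minus mouse, called 5 of the 63 list genes tested. Of these, 4 were more positive in Spalax (all genes, 2.01%) and 1 more negative (all genes, 1.94%). Aox1 was more negative in Spalax (-6.79, adjusted p 0.000986 in limma). More positive in Spalax were Nqo1 (4.72, adjusted p 0.0128 in limma), the transferases Mgst1 (4.95, 0.039) and Mgst3 (3.06, 0.0106), and Gss, glutathione synthetase (1.93, 0.0481).

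In the thioredoxin and peroxiredoxin system 3 of 14 were higher and 6 lower in granuloma, 3 and 7 in Spalax fibrosarcoma, and 2 and 5 in mouse. Mitochondrial members of this system fell in all 3, namely Prdx3 (-2.46, -3.40 and -2.92), Txn2 (-1.35, -1.53 and -1.71) and Txnrd2 (-2.71, -1.46 and -2.27). Prdx4, the peroxiredoxin of the endoplasmic reticulum, rose by 3.38, 3.53 and 2.81. Of glutathione peroxidases and transferases, 3 of 10 were higher and 1 lower in granuloma. In Spalax fibrosarcoma these were 1 and 3, and in mouse 1 and 9 of 15. Some of the 9 are not in the Spalax table, so the counts of the species rest on different sets. Mgst3, a microsomal transferase, fell in all 3 (-2.84, -2.20 and -5.26).

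Glutathione supply and recycling had 0 of 9 higher and 1 lower in granuloma, 0 and 0 in Spalax fibrosarcoma, and 1 and 4 in mouse. Beside 0 called in fibrosarcoma, 1 gene had an unadjusted p under 0.05. Slc7a11, the cystine importer, rose by 4.55 in mouse, where Chac1, which degrades glutathione, fell by 5.33. Oplah, which recycles oxoproline, fell in granuloma (-2.88) and mouse (-3.14). The copper supply of superoxide dismutases had 1 of 4 called in Spalax fibrosarcoma and in mouse, Atp7a, a copper transporter, up by 1.07 and 2.12, and 0 in granuloma, with 0 at an unadjusted p under 0.05. Producers of superoxide and peroxide had 0 of 5 called in granuloma (3 at an unadjusted p under 0.05), 3 of 7 higher in Spalax fibrosarcoma and 3 of 7 higher in mouse. Those that rose most in mouse were Cybb (3.87) and Ncf4 (3.75), and Duox1, a dual oxidase, rose in Spalax fibrosarcoma (2.47). Cybb and Ncf4 encode subunits of the phagocyte oxidase, and the macrophage markers of these tumors are given above.

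The next question was whether muscle without a tumor differs with 3MCA treatment. Spalax tolerant libraries were compared with untreated controls first, and 0 of the 10 members were called (all genes, 0%), while 1 of 10 had an unadjusted p under 0.05 (all genes, 5.23%). That member was Srxn1, with 500.2, 654.4, 718.5 and 555.1 normalised counts in the controls 1042, 1075, 2095 and 6038. The tolerant libraries 2251, 2261, 2218 and 2375 held 1123, 646, 724.6 and 1276. Tolerant 2251 and 2375 lay above all controls while 2261 lay within the control range and 2218 just above it (log2 fold change 0.59, SE 0.25, adjusted p 0.923 in limma). The other log2 fold changes ranged from -0.29 (Sod2) to 0.23 (Gclc), and all 9 overlapped between the groups. DESeq2 and edgeR called 0 members.

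Single tolerant animals departed from their group in other members. Tolerant 2375 held 8079 normalised counts of Cat against 2069 to 2259 in the other 3, and 1043 of Gclm against 141.9 to 372.3. Tolerant 2251 held 2335 of Sod3 against 231.9 to 1223, and the lowest Sod1 (4780) and Sod2 (8362) of the group. In that library muscle fibre markers were lowest (808853) and fibroblast markers highest (224137) of the 12 Spalax muscle libraries, and their part in its values was not tested. All controls were female and had no injected side, while tolerant libraries came from the injected side of 3 males and 1 female, so sex, side and treatment cannot be told apart.

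Uninjected muscle of tumor-bearing Spalax was compared with the same controls, which both comparisons share. Again 0 of 10 members were called (all genes, 0%), and 1 of 10 had an unadjusted p under 0.05 (all genes, 16.6%). Gclc held 342.3, 339.8, 306.9 and 345.2 in the controls 1042, 1075, 2095 and 6038, and 484.8 (600), 833.8 (976), 468 (2240) and 369.6 (2230) in UIS. All 4 UIS values exceeded all 4 controls, with a log2 fold change of 0.62 (SE 0.25, adjusted p 0.268 in limma). Gclm gave 1.21 (SE 0.67, adjusted p 0.384 in limma), with both granuloma UIS libraries above, and both fibrosarcoma UIS libraries within, the control range. Srxn1 (0.72, SE 0.40, adjusted p 0.389 in limma) had the same arrangement, with 1476 and 1954 in granuloma UIS and 512.8 and 645.4 in fibrosarcoma UIS. Neutrophil markers summed to 121.3 to 204.9 in control, 1092 to 3210 in granuloma UIS and 229.1 to 339.8 in fibrosarcoma UIS, and their part in these members was not tested. Sod3 was the member with the lowest value, -0.63 (SE 0.30, adjusted p 0.327 in limma). DESeq2 and edgeR called 0 members. All UIS libraries carry single and all control and tolerant libraries dual indexes, and index and group cannot be told apart. The controls were all female, while 1 of the 4 UIS animals was male.

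Against tolerant animals the UIS libraries gave 0 called members (all genes, 0.00713%) and 0 at an unadjusted p under 0.05 (all genes, 5.12%). The 1 gene called was higher, and of 2 called under total reads 50.0% were higher. Log2 fold changes of the members ranged from -0.80 (Sod3) to 1.26 (Gclm), and the lowest unadjusted p was 0.147, for Sod2. DESeq2 and edgeR called 0 members here too. Scaling by total reads moved the median of all genes by 0.12 in tolerant against control, -0.12 in UIS against tolerant and -0.27 in mouse UIS against control.

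In mouse, UIS muscle had 0 of 10 members called against control (all genes, 0%) and 2 of 10 at an unadjusted p under 0.05 (all genes, 11.0%). Sod3 held 1896, 905.1 and 2186 in the controls M1, M2 and M5 and 505.5 (1019), 435.2 (1023) and 64.78 (512) in UIS. All UIS values lay under all controls, with a log2 fold change of -2.67 (SE 0.78, adjusted p 0.426 in limma), and DESeq2 called it (adjusted p 0.0347) while edgeR did not (0.42). Without UIS 512 the value was -1.73. Cat held 10187, 7357 and 13176 in control and 5593, 6225 and 4646 in UIS, again without overlap (log2 fold change -0.87, SE 0.29, adjusted p 0.441 in limma). White fat markers summed to 158583 to 246124 in mouse control and 27117 to 188043 in UIS, and brown fat markers to 53829 to 73008 and 2901 to 31827. Neutrophil markers summed to 65.19 to 77.35 in mouse control and 327.7 to 16896 in UIS. In UIS 512, which had the lowest Sod3 and Cat of the 3, both fat sums were lowest. The part of these markers in the 2 members was not tested. The dual indexes of the controls and the single indexes of UIS cannot be told apart from the groups here either.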

How the data were processed

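RNA was sequenced as strand-specific single-end libraries from neck muscle or tumor. Per the labels and the study's methods, reads were trimmed, aligned, counted per gene with HTSeq and normalised with DESeq. The submitters' processing notes give TopHat 1.4.1 and, for mouse, GRCm38, while the study's methods name TopHat2. The deposited values are signal values, made by the authors from read counts with 1 size factor for each library. All values were whole multiples of the value of 1 read, from which reads and depth were recovered. The counting's strand setting is not given in the sources used here.

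Groups came from the labels. The main test was limma 3.58.1 (R 4.3.3) on log2(value + 1), two-sided, with the mean-variance trend and Benjamini-Hochberg adjustment over all genes reaching a value of 10 in enough libraries to fill the smaller group. Calls had an adjusted p of at most 0.05, and only the compared groups entered a fit. Fold changes on this scale understate changes of low genes. The interaction with species used genes shared by symbol. Alternatives were a pseudocount of 0.1, no filter, scaling by total reads, DESeq2 1.42.0 and edgeR 4.0.16 quasi-likelihood on the recovered reads, 1 model over all libraries of a species, the animal as a replicate block, and leaving out each library. IS and UIS of a pair come from the same animal, which pairs them, while their deviations from the group means correlated little (mean r 0.00925 in granuloma, -0.00186 in fibrosarcoma and 0.117 in mouse). Mouse coordinates and exon lengths are from GENCODE vM21 (GRCm38), and no coordinates are given for Spalax. The fits were tested on simulated data. Of 200 genes given a 4-fold change, 65.5% were recovered in the interaction of tumor types and 89.0% in that of species. Granuloma IS against UIS gave 93.0%, Spalax UIS against control 98.0% and mouse IS against UIS 100.0%.

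The members and gene lists were chosen with earlier results of these data known. The text names all members, each pathway gene called in granuloma, Spalax fibrosarcoma and mouse in 1 direction and, for lists without one, the 2 largest rises and falls among the called genes. Cul3, Nqo1, Mgst1, Gss, Rbx1 and Txn, whose symbol differs between the tables, were named after their values were seen. Of the genes this rule names, 1 is not reported here. Cell type markers are given as sums and counts.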

Additional observations from a re-analysis of the deposited data

Results flagged for a closer look

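In 40 combinations of a member and a group of 4 Spalax libraries, a single library stood apart from the other 3 in 3 cases. The gap was at least 0.859 of the range of the 4 values, which can be small in counts. Chance gives about 1 in 20, so 3 in 40 is near the number that chance gives. Control 2095 had the lowest Gclc, 306.9 normalised counts against 339.8 to 345.2. Granuloma UIS 976 had the highest Sod2 of the tumor-bearing UIS libraries, 120165 against 20876 to 26709, and is also the library with the highest value in 7 of 10 members. Tolerant 2375 had the highest Cat, 8079 against 2069 to 2259.

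A difference between tumor responses of Spalax fibrosarcoma and mouse passed the limma interaction test in Srxn1 (3.25, adjusted p 0.0407) and Cat (3.13, adjusted p 0.00997), and both calls were lost with the animal as a block. In Gclc both Spalax fibrosarcomas were higher than their UIS and all 3 mouse tumors lower, with a difference of 2.50. This did not pass (limma adjusted p 0.0997), and under total reads the mouse value turned to 0.72. In Txnrd1 both fibrosarcomas were higher and both granulomas lower than their UIS, with a difference of 1.78 that did not pass (limma adjusted p 0.946). Granuloma animal 600 differed by only -0.03 on the log2 scale, and under total reads the granuloma value turned to 0.34.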

How the results depend on the processing

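Of 14 calls of members, those of Gclc and Srxn1 over both Spalax tumor types and of Sod1, Sod2 and Cat in mouse were kept under scaling by total reads, edgeR, the replicate block and each library left out. Members called in granuloma numbered 1 without a filter, 4 with DESeq2, 4 in 1 model over all Spalax libraries and 0 to 2 with single libraries left out. In fibrosarcoma they numbered 4 under total reads, 5 with DESeq2, 4 with the animal as a replicate block and 0 to 8 with single libraries left out (0 without UIS 2240 or UIS 2230, 8 without IS 2230). Over both types leaving out single libraries gave 3 to 5. DESeq2 called 1 in mouse UIS against control, 1 in the interaction of tumor types and 4 in that of species, where the block gave 0 and leaving out libraries 0 to 3. The block changed no call other than these and those given beside the members. In granuloma, scaling by total reads kept the call of Gclm and lost that of Cat. There limma also called Gclc (1.67, adjusted p 0.047) and Srxn1 (1.31, adjusted p 0.0475) higher. The cause of these changes was not tested.

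Scaling by total reads turned Keap1 (0.09) and Txnrd1 (0.34) in granuloma, Keap1 (0.55) and Sod2 (0.30) in fibrosarcoma, Nfe2l2 (0.30) and Keap1 (0.32) over both types, and Nfe2l2 (1.04), Gclc (0.72), Srxn1 (0.20), Txnrd1 (0.79) and Sod3 (0.06) in mouse. With single libraries left out, log2 fold changes spanned 0 for uncalled members only. In fibrosarcoma these were Nfe2l2 (-0.09 to 0.24), Keap1 (-0.68 to 0.17), Gclm (-0.02 to 0.27) and Sod2 (-1.35 to 0.34). In mouse they were Nfe2l2 (-0.25 to 0.24), Gclc (-0.58 to 0.02) and Txnrd1 (-0.50 to 0.07). In the interaction of tumor types they were Keap1 (-0.03 to 0.82), Sod1 (-0.32 to 1.05) and Sod2 (-0.15 to 2.38), and in that of species Nfe2l2 (-0.17 to 0.33). Leaving out 1 of 2 libraries assumes that the lone library varies like the others.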

Other observations

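The reads of Sod2 relative to Sod1 within a library, a ratio chosen after the values were seen, was read within each species. In mouse it was 1.80 to 2.15 in control, 1.13 to 1.90 in UIS and 0.467 to 0.822 in IS. All 3 mouse tumors lay below every mouse muscle library. In Spalax it was 1.70 to 3.22 in control, 1.58 to 3.37 in tolerant, 2.40 to 2.73 in fibrosarcoma UIS and 2.32 to 7.60 in fibrosarcoma IS. Granuloma UIS spanned 1.13 to 16.8 and granuloma IS 3.53 to 5.10, so tumors and muscle overlapped in Spalax. No test was run on it.

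Hmox1, which gives heme oxygenase 1, had its levels apart in every tumor. Spalax tumors held 4402 (600), 1497 (976), 1835 (2240) and 1710 (2230) normalised counts, and the 12 Spalax muscle libraries 108.4 to 670.4. Mouse tumors held 559.3 (1019), 1755 (1023) and 856.9 (512), and the 6 mouse muscle libraries 166.9 to 293.3. Among the muscle libraries tolerant 2251 was highest with 670.4. That library also had the highest macrophage and fibroblast and the lowest muscle fibre marker sums of the tolerant group. The part of these markers in its Hmox1 level was not tested.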
